A study of Mus musculus with 14 samples.

Results

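The regions described here were 2499 narrow H3K27me3 peaks that lay far from genes in mouse neural stem cells with wild-type histone H3. They were the autosomal peaks under 3 kb in replicate 1 of H3WT DMSO that overlapped a peak of replicate 2 and lay more than 20 kb from every protein-coding RefSeq gene interval. They made up 2499 of 7458 autosomal peaks under 3 kb shared by both replicates, of 10822 shared peaks of any width, and of 11053 autosomal peaks of replicate 1. Before the requirement of a replicate 2 peak there were 2590 such peaks, so 91 were left out by it. Chromatin immunoprecipitation with sequencing had been carried out on cells labelled PDGF neural stem cells, which the series' design text describes as a mouse model of DIPG, a childhood brainstem glioma. The labels give 2 genotypes, H3WT (wild-type histone H3.3) and K27M (histone H3.3 with methionine in place of lysine at the site of the mark). Each genotype had been kept for 12 days with DMSO, the solvent, or with 3 µM EPZ6438 (EPZ), which inhibits the methyltransferase Ezh2. H3K27me3 was mapped in 2 libraries for each of the 4 groups, and Ring1b and Suz12 were mapped in 1 library per genotype in DMSO.

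All groups shared the PDGF background and a neural stem cell medium with epidermal and fibroblast growth factors, and the number of clones behind each line was not given in the sources used here. Some titles of the untreated libraries do not name DMSO, and they were taken as DMSO because the treatment protocol gives no other control. The labels do not state whether replicates were separate cultures, so p-values below cover the spread between libraries alone, and that spread may be technical. Peak lists hold no expression, so the cell type could not be checked from transcripts. Of 9 neural stem and glial progenitor marker genes, Pdgfra alone had an H3K27me3 peak in its gene interval in H3WT DMSO (1.49 kb in replicate 1 and 3.99 kb in replicate 2). Markers of other cell types were mixed. Rbfox3 and Tubb3 (neurons) had peaks of 33.8 and 1.05 kb in replicate 1, and Aldh1l1 (astrocytes) 3.60 kb in replicate 2 only. Map2, Aqp4, Mbp, Mog, Aif1 and Cx3cr1 had none in either library. A lack of peaks therefore does not identify the cell type.

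As background, Polycomb repressive complex PRC2, which contains Ezh2 and Suz12, places H3K27me3 on genes that the cell keeps silent, and complex PRC1, which contains Ring1b, can bind the mark and ubiquitinates histone H2A. PRC2 gathers at CG-rich DNA, mostly at promoters of developmental regulators, and the mark spreads from there into surrounding chromatin. K27M histone interferes with PRC2, and cells that carry it keep H3K27me3 at fewer places.

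The libraries differed widely in the number of peaks deposited, and the read depth behind them was not given in the sources used here. H3WT DMSO had 13358 peaks in replicate 1 and 59899 in replicate 2, and K27M DMSO had 2351 and 17980. The 4 EPZ libraries had 201 to 340 peaks, Ring1b had 1754 in H3WT and 1808 in K27M, and Suz12 had 631 and 1252. A difference in overlap between libraries therefore moved together with the number of peaks called, and the part of depth in it was not tested.

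Protein-coding promoters are absent from the regions by definition, but 22 of them (0.88%) held the start of a long noncoding RNA (lncRNA) listed in the RefSeq table of start windows, 24 genes in all. The start windows are shown for their CG content, because PRC2 recruitment is tied to CG-rich DNA, and each is only a small stretch of its region. Each window below runs from 250 bases before the start to 50 bases after it, 5′ to 3′ on the strand of the gene, from RefSeq GRCm38.p6, and capitals mark CG, which reads the same on both strands. Gm34099 starts in the 1 region of the 22 that had a peak in both K27M libraries (chr8:57410180-57410479, plus strand). Gm26843 (chr8:93751657-93751956, minus strand) and 4930557F10Rik (chr13:23313358-23313657, minus strand) start in the widest of the 22 with a K27M peak in replicate 2 only and a window wholly inside. Gm41414 (chr16:5306588-5306887, plus strand) and Gm30211 (chr6:70728963-70729262, plus strand) start in the widest of the 22 with no K27M peak.
Gm34099: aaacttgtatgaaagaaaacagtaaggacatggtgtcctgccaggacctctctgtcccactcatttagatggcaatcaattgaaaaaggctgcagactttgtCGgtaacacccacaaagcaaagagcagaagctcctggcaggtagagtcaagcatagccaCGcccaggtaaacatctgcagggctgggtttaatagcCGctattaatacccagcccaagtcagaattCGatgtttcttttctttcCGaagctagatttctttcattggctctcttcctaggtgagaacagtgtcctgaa
Gm26843: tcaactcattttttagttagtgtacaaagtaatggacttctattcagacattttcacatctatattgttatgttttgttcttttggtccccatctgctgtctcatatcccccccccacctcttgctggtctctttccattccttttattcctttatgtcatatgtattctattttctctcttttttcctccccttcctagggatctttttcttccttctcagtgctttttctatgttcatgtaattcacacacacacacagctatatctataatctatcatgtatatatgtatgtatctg
4930557F10Rik: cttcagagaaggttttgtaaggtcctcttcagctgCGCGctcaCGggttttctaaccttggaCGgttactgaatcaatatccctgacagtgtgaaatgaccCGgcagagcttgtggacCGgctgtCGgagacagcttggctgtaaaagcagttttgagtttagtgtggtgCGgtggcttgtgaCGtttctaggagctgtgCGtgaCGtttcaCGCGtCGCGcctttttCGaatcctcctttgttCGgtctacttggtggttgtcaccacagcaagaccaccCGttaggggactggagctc
Gm41414: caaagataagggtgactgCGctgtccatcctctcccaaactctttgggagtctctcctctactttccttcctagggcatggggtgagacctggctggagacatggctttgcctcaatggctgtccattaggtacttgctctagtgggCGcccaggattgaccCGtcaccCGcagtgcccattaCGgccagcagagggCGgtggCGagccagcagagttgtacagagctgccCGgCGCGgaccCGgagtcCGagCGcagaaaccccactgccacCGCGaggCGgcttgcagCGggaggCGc
Gm30211: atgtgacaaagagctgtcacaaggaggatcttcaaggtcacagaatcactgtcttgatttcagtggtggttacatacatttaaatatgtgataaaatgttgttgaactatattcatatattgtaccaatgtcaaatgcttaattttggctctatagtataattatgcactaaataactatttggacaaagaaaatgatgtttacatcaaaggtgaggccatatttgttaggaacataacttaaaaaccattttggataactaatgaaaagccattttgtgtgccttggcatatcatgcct

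The windows of Gm34099, 4930557F10Rik and Gm41414 held 5, 18 and 18 CG, and those of Gm26843 and Gm30211 held 0. High and low CG content thus stood on both sides, with and without a K27M peak. Of 25 start windows, 4 ran partly outside their region. Over the 21 wholly inside, the median was 3 CG, the lowest 0 and the highest 18. At least 1 CG was present in 17 of them (81.0%), beside 94.6% of 32851 RefSeq start windows of the same length. With 10 or more CG there were 3 (14.3%), beside 43.5% of all windows. All 24 genes that start in the regions are lncRNAs, while the background windows were not selected by gene type. The part of gene type in these differences was not tested. Gm41414 shares its region with Gm52265, which starts on the opposite strand, and their windows overlap. Of the 22 regions, 12 (54.5%) were overlapped by a K27M peak in replicate 2 and 1 in replicate 1, beside 42.1% and 2.22% of the regions without such a start. The 22 were also wider, with a median of 2000.5 bp beside 1454 bp. These windows describe the few regions with an annotated start, and the sequences of the other regions were not analysed here.

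One region held a microRNA gene. Mir135a-2, on the minus strand, lies within the peak at chr10:92071383-92072517, 612.2 kb from Nedd1, which takes part in microtubule nucleation. Its mature products are shown because it is the only microRNA gene in the regions, with the seed (bases 2 to 8) in capitals.
mmu-miR-135a-5p: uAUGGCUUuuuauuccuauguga
mmu-miR-135a-2-3p: uGUAGGGAuggaagccaugaa
Both H3WT libraries overlapped the region, and neither K27M library had a peak there (0 bp in each). Overlap with annotated genes of other types was counted for the regions alone, so no background share stands beside it. Of the 2499, 580 (23.2%) overlapped a noncoding or pseudogene interval, and 525 overlapped an lncRNA. With genes of every type counted, 1099 regions (44.0%) still lay more than 20 kb from any RefSeq gene.

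The rule set the width and the gene distance of the regions, and these values are a description. Widths ran from 1001 to 2997 bp with a median of 1457 bp, and the regions covered 3.97 Mb in all. Distance to the nearest protein-coding gene had a median of 75.6 kb, quartiles of 38.7 and 159 kb and a highest value of 2179 kb. At the distance limit the nearest regions kept lay 20009 bp from Gm30698, 20076 bp from Rbmxl2 and 20108 bp from Th, the rate-limiting enzyme of catecholamine synthesis. The nearest peaks left out lay 19997 bp from Foxb2, 19976 bp from Adra2c and 19947 bp from Dnajc24. At the width limit the widest regions kept were 2997, 2993 and 2988 bp, and the narrowest distal peaks left out were 3003, 3007 and 3009 bp.

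The farthest region lay 2179 kb from Pcdh20 (chr14:90650851-90651851), a protocadherin of neural cell adhesion, in the interval between Pcdh20 and Pcdh9. The next lay 2080 kb from Celf4, 1425 kb from Cited2, and 1161 and 1155 kb from Kcnd2, which encodes a potassium channel. Of these 5 regions, the one near Celf4 had a K27M peak, in replicate 2, and none had an EPZ, Ring1b or Suz12 peak. DNA more than 20 kb from genes made up 44.3% of the autosomal span between the first and last protein-coding gene of each chromosome (1077 Mb) and held 33.5% of the narrow shared peaks. That is 2.32 regions per Mb, beside 5.52 narrow peaks per Mb outside genes within 20 kb of one and 2.97 per Mb within genes.

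In replicate 2 of H3WT the same places lay within much wider peaks. The replicate 2 peak over a region had a median width of 7790 bp, was wider than the region in 98.1% of cases, and reached 10 kb or more for 963 regions (38.5%). It contained 2182 regions (87.3%) completely. The regions were held by 1897 replicate 2 peaks, of which 455 held 2 or more regions and 1 held 9. A region that is narrow in replicate 1 thus lay in most cases inside a longer called stretch in replicate 2, which had more peaks in all. For narrow peaks outside genes within 20 kb the median replicate 2 width was 7970 bp, and for those within genes it was 6408 bp.

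Most regions had another region close by. Of the 2499, 2020 (80.8%, exact 95% interval 79.2 to 82.4%) had another within 100 kb, and 1434 (57.4%) had one within 10 kb. Among all 10822 shared autosomal peaks, 88.2% had another such peak within 100 kb and 69.4% within 10 kb, counted over a set that is denser because it holds the regions and every other peak. Counted within each class alone, 66.7% of narrow peaks outside genes within 20 kb and 70.6% of narrow peaks within genes had another of their class within 100 kb. With both of these classes pooled the share was 78.5%, and for all narrow shared peaks it was 83.1%. The median gap to the nearest of the class was 5864 bp for the regions, 11222 bp for the peaks near genes and 13372 bp for those within genes, 7938 bp for the last 2 together and 6680 bp for all narrow peaks. The share for the regions thus lay between those of the larger sets and above those of the split classes. The classes differ in the span they can occupy, and no test of the spacing was made. Intervals on shares cover the counting of peaks only, and neighbouring regions are not independent.

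**Figure D1:**
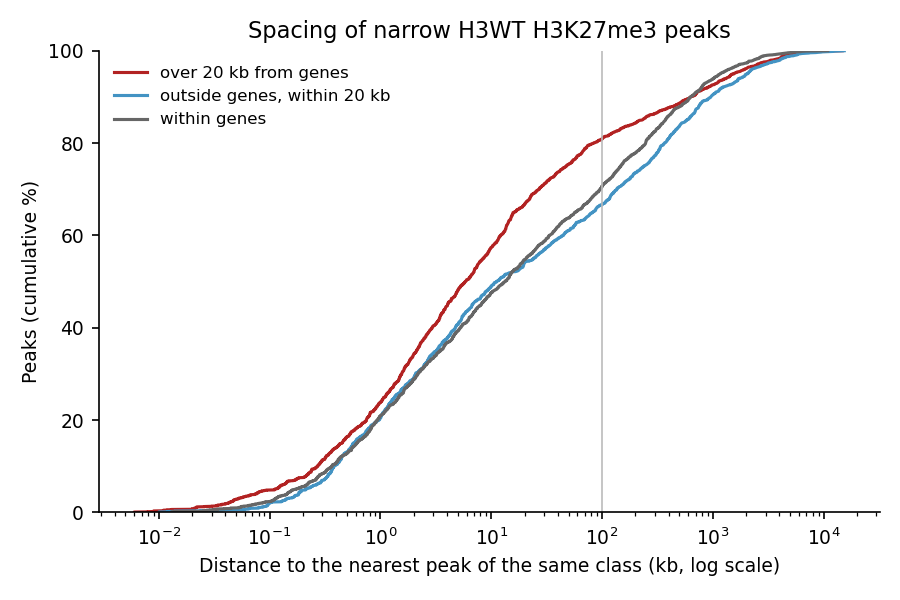
Cumulative percent of narrow H3WT H3K27me3 peaks (y axis) against the distance to the nearest peak of the same class in kb (x axis, log scale), for 2499 regions over 20 kb from genes, 2034 peaks outside genes within 20 kb and 2925 peaks within genes. At 100 kb (grey line) the curves stand at 80.8%, 66.7% and 70.6%.

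Linking regions less than 100 kb apart gave 955 groups, of which 479 were single regions. There were 125 groups of 5 or more, which held 1116 regions (44.7%), and 39 groups of 10 or more, which held 573 (22.9%). The number of regions differed between chromosomes, and so did the number of all narrow shared peaks. Chromosome 9 held 318 regions (12.7%), and the next was chromosome 2 with 227 (9.08%), while chromosome 17 held 36 (1.44%). These were 47.9%, 35.5% and 15.3% of the 664, 640 and 236 narrow shared peaks there, beside 33.5% over all autosomes. Chromosome length was not taken into account.

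The largest group held 41 regions over 769.7 kb (chr13:47634259-48403931) and enclosed Id4, an inhibitor of basic helix-loop-helix transcription factors in neural precursors. Peaks covered 151 kb of its span in H3WT replicate 1, 452 kb in H3WT replicate 2, 23.8 kb in K27M replicate 1 and 121 kb in K27M replicate 2. No EPZ library had a peak in it, and K27M replicate 2 overlapped 11 of the 41 regions. The second group, between Tle3, a Groucho corepressor, and Rplp1, a ribosomal protein gene, held 29 regions over 410.8 kb (chr9:61466178-61876943). There the cover was 263 and 387 kb in H3WT and 60.8 and 278 kb in K27M, and K27M replicate 2 overlapped 22 of the 29. K27M replicate 1 overlapped no region in either group, beside 2.24% of all regions, and none among so few is near that share. It had peaks elsewhere in both spans.

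The third group, between Lrpap1 and Cpz (chr5:35139945-35471033), held 25 regions over 331.1 kb and enclosed Adra2c, an adrenergic receptor gene, and Hmx1, a homeobox gene. Its cover was 132 and 234 kb in the H3WT libraries and 31.3 and 68.2 kb in the K27M libraries. All 4 EPZ libraries kept peaks in this span, 18.7 and 19.1 kb in H3WT and 11.1 and 11.6 kb in K27M, but none at any of the 25 regions. Suz12 covered 15.2 kb in H3WT and 11.1 kb in K27M, again at none of the regions. Ring1b covered 9.53 kb in H3WT and 12.3 kb in K27M, also at none of the 25. Over all 2499 regions 0.08% had an EPZ peak, 0.24% a Suz12 peak and 0.76% a Ring1b peak. None among 25 is near those shares. The rule also keeps wide peaks and peaks near genes out of the regions.

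The fourth group, between Ntm, which encodes the neural adhesion protein neurotrimin, and Snx19, held 25 regions over 400.3 kb (chr9:29986685-30387033). K27M replicate 2 overlapped 16 of them and covered 131 kb of the span, beside 17.0 kb in K27M replicate 1. The fifth, between Kif26a and A530016L24Rik (chr12:112207719-112443180), held 22 regions over 235.5 kb. It had 67.3 and 161 kb of cover in the H3WT libraries, 0 in K27M replicate 1 and 19.8 kb in K27M replicate 2, which overlapped 3 regions.

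**Figure D2:**
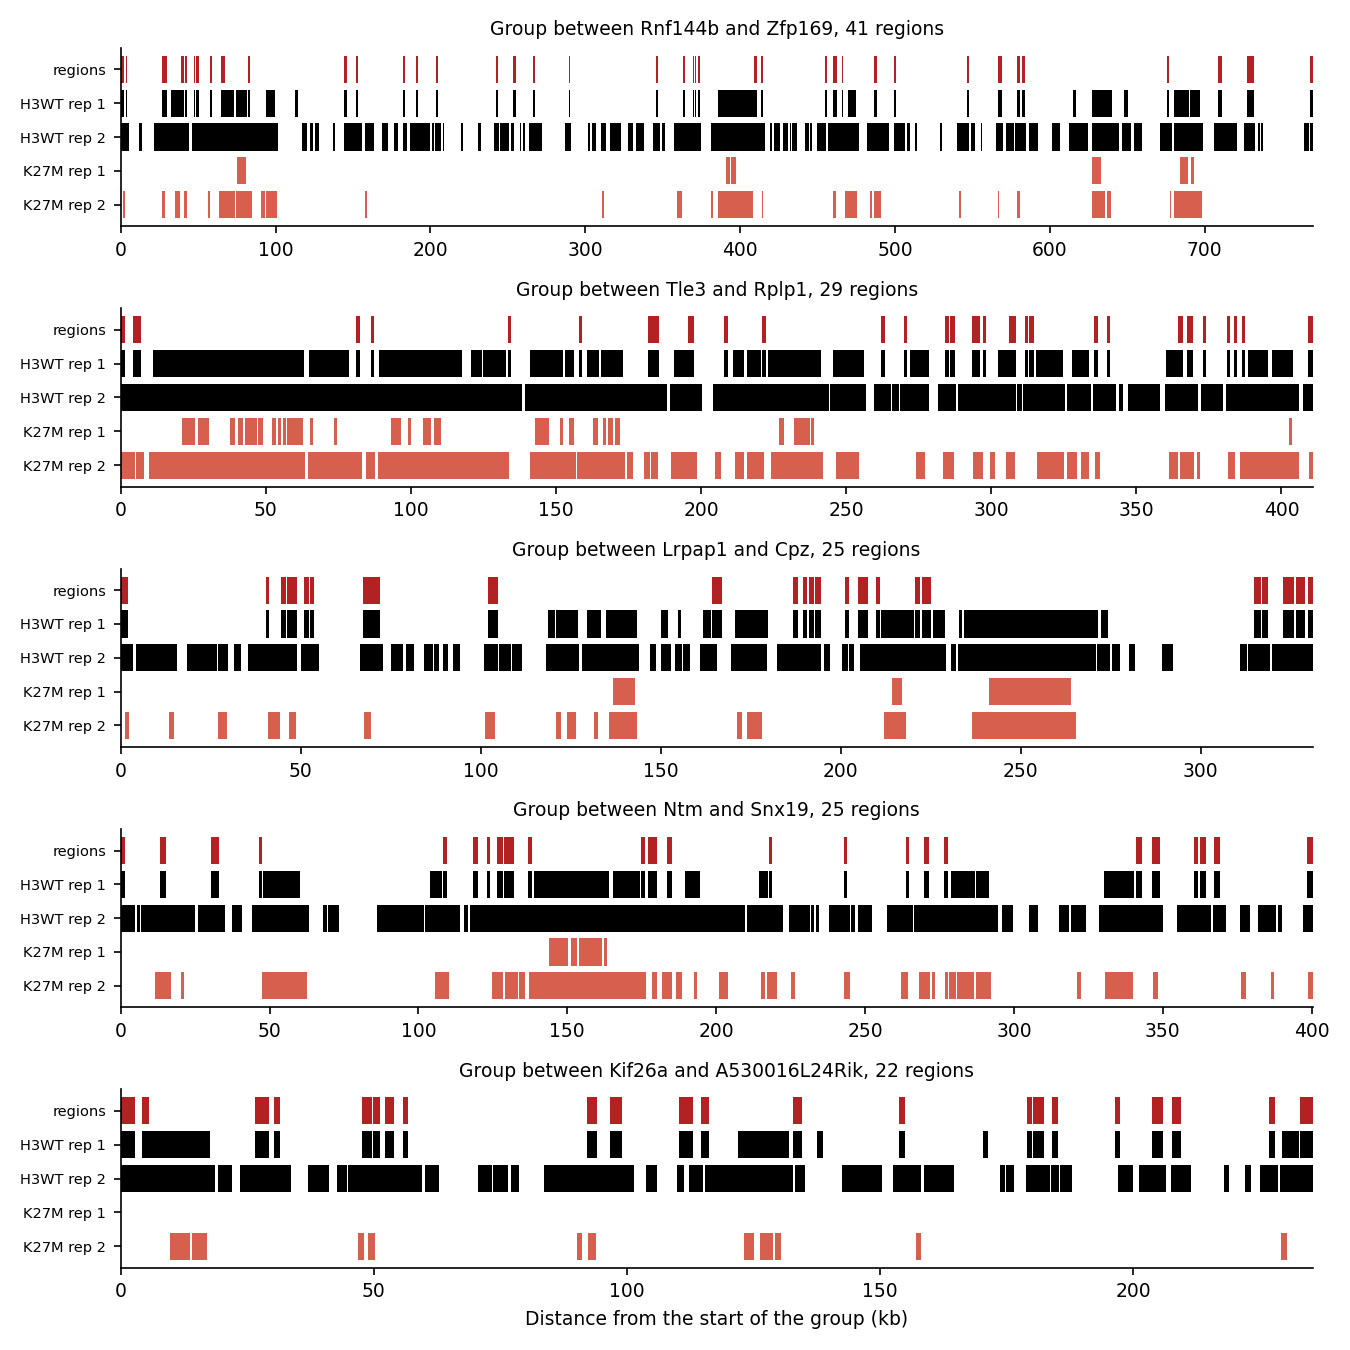
Maps of the 5 largest groups, with distance from the start of each group in kb on the x axis and 1 track each for the regions (dark red), the H3WT DMSO H3K27me3 peaks of replicates 1 and 2 (black) and the K27M DMSO peaks of replicates 1 and 2 (orange). H3WT replicate 2 forms long blocks around the narrow regions. No K27M replicate 1 peak meets a region in these groups, beside 2.24% of all regions that have one.

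Over the 39 groups of 10 or more, the share of regions overlapped in K27M replicate 2 ran from 0 to 91.7% with a median of 33.3%. A K27M replicate 2 peak met at least 1 region in 34 of the groups, and a replicate 1 peak in 4. Over all 955 groups these shares were 53.3% and 4.19%, and a larger group offers more regions to meet. By region, groups of 10 or more had 41.4% in replicate 2 and 0.873% in replicate 1, beside 42.3% and 2.24% of all regions. Some groups at both ends of the range of replicate 2 shares, chosen here after their values were seen, show its width. Between Septin9 and Tnrc6c 11 of 12 regions had a K27M replicate 2 peak, and between Uaca and Tle3 17 of 20. Beside Zic4, a zinc-finger factor of cerebellar development, 0 of 10 regions did, with cover of 26.0 and 43.1 kb in H3WT and 0 in both K27M libraries. In the Pcdh9 group 0 of 12 did, with 19.8 and 103.5 kb in H3WT and 0 in both K27M libraries.

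The nearest protein-coding gene differed widely between regions. In all 989 genes were nearest to a region, 487 of them to a single one, 142 to 5 or more and 32 to 10 or more. Of the 989, 343 (34.7%) had a peak of H3WT replicate 1 in their own interval, beside 13.2% of 20665 autosomal protein-coding genes. The other genes had no such peak in their own interval. Nearness is a position only, and no expression was measured.

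Id4 was nearest to the most regions, 29 at 42.9 to 480 kb, and K27M replicate 2 overlapped 5 of them. Rplp1 was nearest to 20 regions, of which 13 had a K27M replicate 2 peak. Ets1, a transcription factor of lymphoid and vascular cells, had 19 regions and 2 with that peak. Foxa2, a forkhead factor of endoderm and floor plate, had 17 regions and 4 with it, and Gm4791, a predicted gene, had 17 and 13. Pcdh9, a protocadherin, had 17 regions and none with it, and Kirrel3, a synaptic adhesion gene, had 16 and 1. Nampt, the rate-limiting enzyme of NAD salvage, had 15 regions and 11 with it, Tle3 had 15 and all 15, and Cryba4, a lens crystallin gene, had 14 and 5. Cryba4 was taken by symbol from 4 genes tied at 14, the others being Itga1, Ntm and Uaca. No region nearest to these 10 genes had a peak in K27M replicate 1, and of the tied genes Itga1 had 1 that did. The K27M share thus ran from none to all of a gene's regions. The genes themselves differed as well: Foxa2 and Id4 were covered over 100% and 92.2% of their length in H3WT replicate 1, while Rplp1, Gm4791, Nampt and Pcdh9 had 0.

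Gene lists put these neighbours in groups, each count being read against 42.3% of all regions with a K27M replicate 2 peak. Homeobox and paired-box factors, which specify position and cell identity, were nearest to 110 regions (4.40%) through 49 of 138 genes, and other lineage transcription factors to 117 (4.68%) through 37 of 141. The same lists were nearest to 2.98% and 3.27% of the 4959 narrow peaks within or near genes. K27M replicate 2 overlapped 44 of the 110 and 46 of the 117, and K27M replicate 1 overlapped 4 and 5. Zfhx3, a large homeobox factor, had 7 regions at 281 to 336 kb, of which all 7 had a K27M replicate 2 peak and 3 a replicate 1 peak. Pax2, a factor of kidney, eye and midbrain, also had 7 regions, at 28.5 to 80.8 kb, and none had a K27M peak. Lhx1 had 6 regions with 3 under a replicate 2 peak, and Hmx1, first by symbol of 4 genes with 5 regions, had none.

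Among other lineage factors, Zic4 had 10 regions with no K27M peak, Olig3, a dorsal neural tube factor, had 9 with 5 in replicate 2 and 1 in replicate 1, and Hand2, a heart and limb factor, had 8 with 6 and 0. Hox genes, regulators of head-to-tail identity, were nearest to 7 regions (0.28%, beside 0.0403% of the narrow peaks within or near genes), 6 at Hoxc13 and 1 at Hoxb1. Secreted signals and their antagonists were nearest to 35 regions, beside 52 of the 4959 narrow peaks within or near genes, 11 of the 35 with a K27M replicate 2 peak. Gdf10, a ligand of the TGF-beta family, had 10 regions with no K27M peak, and Dkk1, a Wnt antagonist, had 6 with 4 in replicate 2 and 3 in replicate 1. Within these lists, single genes stood at opposite ends, and the list counts average over them.

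Cadherins and protocadherins, which hold cells together, were nearest to 38 regions (1.52%, beside 0.423% of the narrow peaks within or near genes) through 10 of 40 genes. None of the 38 had a peak in either K27M library, and 17 of them belong to Pcdh9, 5 to Fat3 and 4 each to Cdh20 and Cdh26. Axon guidance and synaptic adhesion genes were nearest to 44 regions (1.76%, beside 2.20%), 14 with a K27M replicate 2 peak, of which 9 lay near Ntm. Neurotransmitter receptors and ion channels were nearest to 29 regions (1.16%, beside 1.81%), 3 with that peak, and all 3 lay near Grm7, a glutamate receptor. Kcnj3, an inward rectifier channel, had 7 regions at 512 to 552 kb and none with it. Regions near 1 gene share a stretch of chromatin, so these counts rest on few loci and were not tested.

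Other lists were nearest to few regions. Polycomb subunits had 6 (0.24%, beside 0.242% of the narrow peaks within or near genes), of which 5 lay 21.4 to 49.0 kb from Rybp, a PRC1 subunit, and 4 of these had a K27M replicate 2 peak. Olfactory, vomeronasal and taste receptors, the largest list, were nearest to 14 regions (0.56%, beside 1.86%) through 9 of 1508 genes, and zinc-finger genes to 13 (0.52%, beside 1.13%) through 5 of 388. Housekeeping genes were nearest to 1 (0.04%, beside 0.0403%). Neural stem and glial progenitor markers, and the protease inhibitors and defensins, were nearest to none, beside 0.0202% and 0.282%.

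In K27M cells in DMSO most of the regions had no called peak in either library. K27M replicate 1 overlapped 56 regions (2.24%, 1.70 to 2.90%), beside 16.4% of all shared autosomal peaks, a background that includes the regions and wider peaks. K27M replicate 2 overlapped 1056 (42.3%, 40.3 to 44.2%), beside 60.4%. All 56 were among the 1056, so 1000 regions had a peak in replicate 2 only and 1443 (57.7%) in neither, beside 39.6% of all shared peaks. By bases, K27M replicate 1 covered 2.02% of the regions' length and replicate 2 covered 37.7%. The regions were chosen on H3WT peaks, so fewer peaks in K27M than in H3WT were given by the choice and no test was made. Choosing from H3WT replicate 2 alone gave 14025 distal peaks under 3 kb in that library. Of these, 2.89% had a K27M peak in at least 1 library. They are largely other places, because the replicate 2 peaks over the regions had a lower width quartile of 4495.5 bp, above the 3 kb limit. The 2.89% is thus not a second measure of the same regions.

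Narrow peaks closer to genes had higher shares in both K27M libraries, and with 2 libraries this difference was not tested on its own. K27M replicate 1 overlapped 3.20% of narrow peaks outside genes within 20 kb and 3.86% of those within genes, and K27M replicate 2 overlapped 50.8% and 47.2%. Against both of these classes together the regions differed by -1.35 percentage points in K27M replicate 1 and by -6.40 in replicate 2. Over the 6 H3K27me3 libraries outside H3WT DMSO the mean difference was -1.31 points (7.43% of the regions against 8.74% of the other narrow peaks), with the regions lower in 5 of 6 libraries. A two-sided exact sign-flip permutation test over the 6 libraries gave p = 0.0625, where the smallest possible is 0.0312. This p is set largely by the signs of the 4 EPZ differences, which rest on 0 to 3 peaks in each class, so it does not bear on the K27M values. With K27M and EPZ peaks of at least 2 kb, or with genes of every type, p was 0.0312 (-0.842 and -1.86 points), with the same limit.

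**Figure D3:**
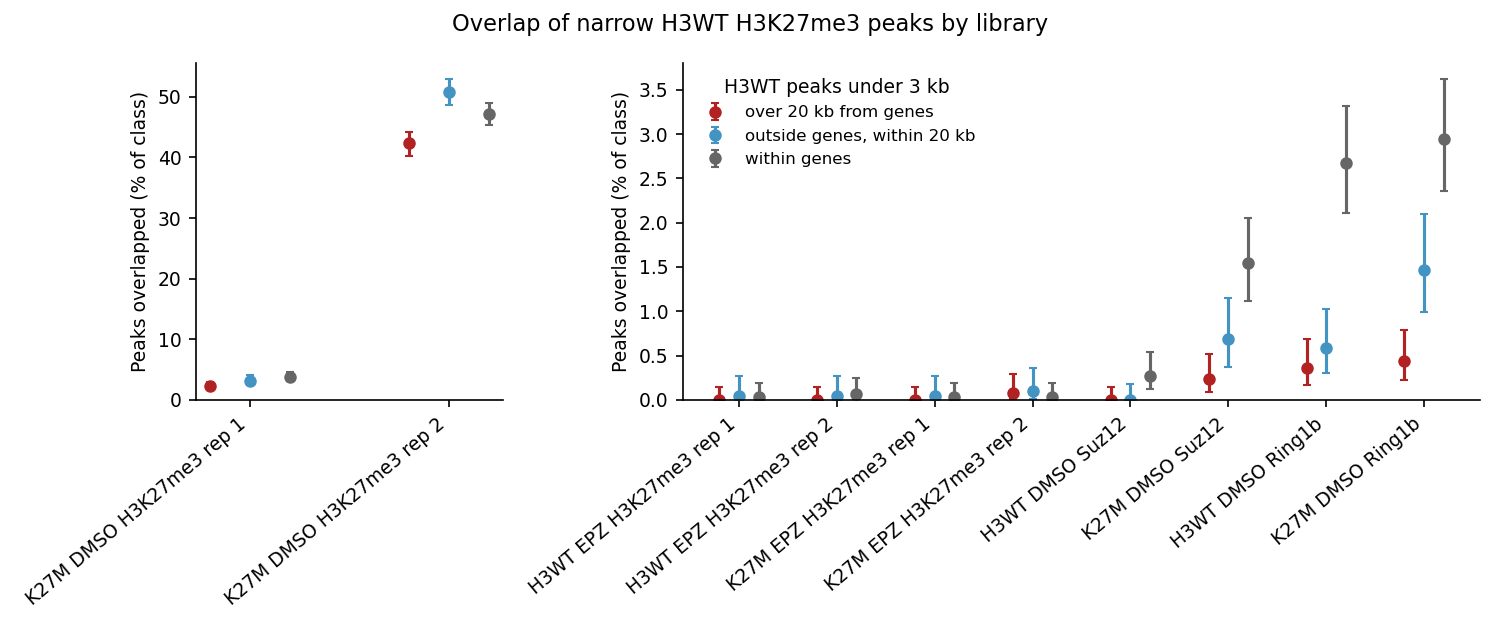
Percent of narrow H3WT H3K27me3 peaks overlapped by a peak of each library (y axes, different scales left and right), with exact 95% intervals that cover the counting of peaks, for the regions over 20 kb from genes (red), peaks outside genes within 20 kb (blue) and peaks within genes (grey). The regions stand at 2.24% and 42.3% in the K27M DMSO libraries and at 0.44% or less in every EPZ, Suz12 and Ring1b library.

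The K27M share was higher in each wider class of regions. K27M replicate 2 overlapped 30.5% of the 901 regions of 1001 to 1250 bp and 34.7% of the 406 regions up to 1500 bp. It overlapped 46.1% of the 672 regions up to 2000 bp and 63.5% of the 520 above that. Width in replicate 1 entered the choice only as a limit of 3 kb. Narrow peaks near and within genes had the same order, with 72.2% and 67.9% overlapped among those above 2000 bp. By the width of the H3WT replicate 2 peak, the share was 24.6% up to 5 kb, 47.2% at 5 to 10 kb, 44.8% at 10 to 20 kb and 63.3% over 20 kb, so the middle classes did not follow the order. These shares are descriptions, since a wider region offers more bases to overlap and its width comes from the libraries used for the choice.

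Other features varied less with K27M overlap. By distance to the nearest protein-coding gene, the K27M replicate 2 share was 44.1% at 20 to 50 kb, 42.8% at 50 to 100 kb, 44.7% at 100 to 250 kb and 32.9% beyond 250 kb. Single regions had 37.6%, regions in groups of 2 to 4 had 44.5%, those in groups of 5 to 9 had 43.6%, and those in groups of 10 or more had 41.4%. The 56 regions with a peak in both K27M libraries had a median width of 2014.5 bp, within H3WT replicate 2 peaks of median 15.5 kb and K27M replicate 2 peaks of median 12.4 kb. For the 1000 with replicate 2 only these medians were 1676.5 bp, 9.27 kb and 2.74 kb, and for the 1443 with neither the first and second were 1324 bp and 6.36 kb.

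**Figure D4:**
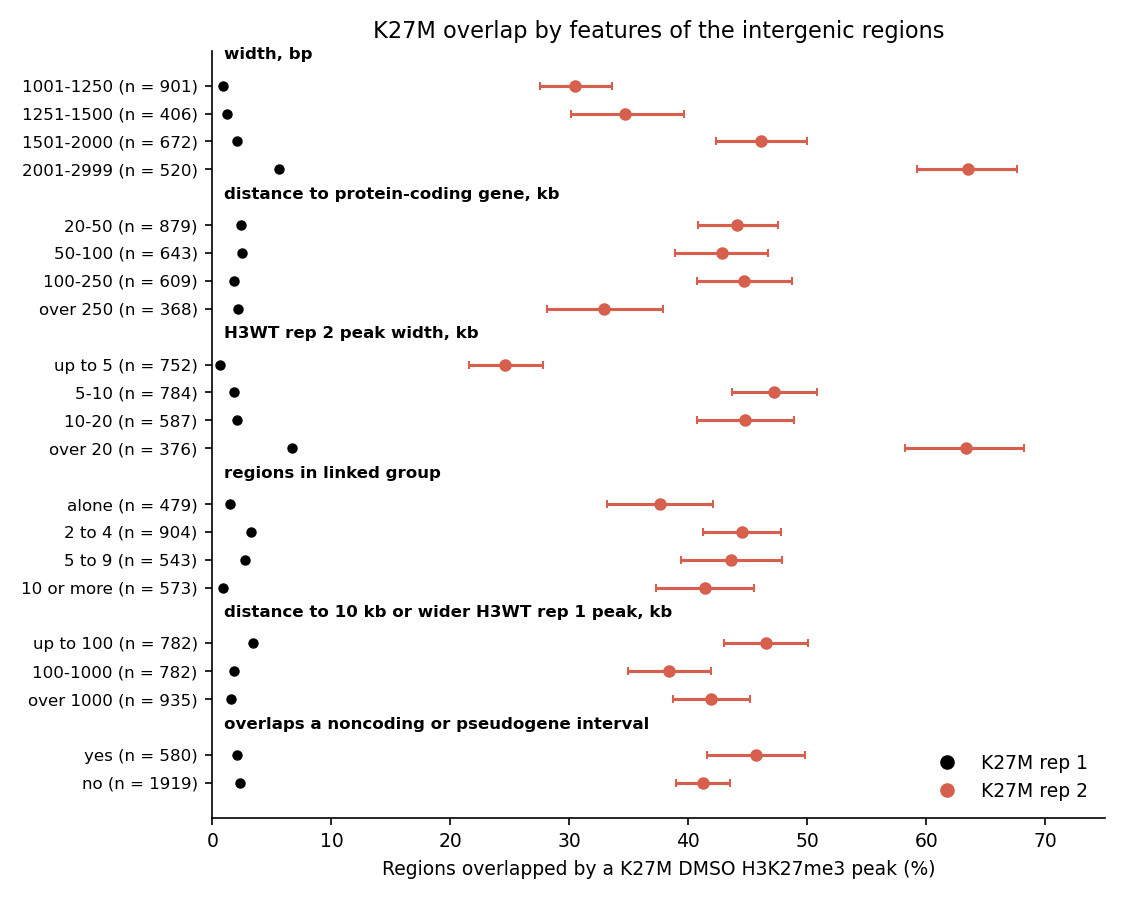
Percent of regions overlapped by a K27M DMSO H3K27me3 peak (x axis) in replicate 1 (black) and replicate 2 (orange, with exact 95% intervals that cover the counting of regions), by class of each feature (y axis). The replicate 2 share runs from 30.5% to 63.5% over the width classes and from 24.6% to 63.3% over the classes of H3WT replicate 2 peak width.

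The widest of the 56 regions with both K27M peaks lay near genes of varied kinds. A region of 2972 bp lay 86.9 kb from Basp1, a membrane protein of growing axons (chr15:25500617-25503588), with 2403 bp under K27M replicate 1 and all 2972 under replicate 2. A region of 2900 bp lay 40.4 kb from Galnt10, an enzyme of O-glycosylation, and had 2446 and 2900 bp. A region of 2857 bp lay 107.5 kb from Six2, a homeobox factor of kidney progenitors, and had 2048 and 2857 bp. A region of 2834 bp lay 126.2 kb from Dkk1 and had 2390 and 2834 bp. The remaining 4 of the 8 widest lay near A230072I06Rik, Atpsckmt, Foxd3 and Tbc1d30. All 8 were covered completely in both H3WT libraries and in K27M replicate 2, and had no EPZ peak.

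Under EPZ the regions carried almost no called peaks. H3WT EPZ replicates 1 and 2 and K27M EPZ replicate 1 overlapped 0 of 2499 regions, which allows a share of up to 0.12%, and K27M EPZ replicate 2 overlapped 2 (0.08%). Among all shared autosomal peaks, the same 4 libraries in this order overlapped 1.97%, 1.72%, 1.09% and 1.76%, and at least 1 of them overlapped 2.30%. That background includes wider peaks. Among the 4959 narrow peaks within or near genes, at least 1 EPZ library overlapped 0.0807%, beside 0.08% of the regions. The low share was therefore not particular to regions far from genes. EPZ against DMSO in H3WT used the libraries of the choice and was not tested. In K27M the share was 22.2% ± 28.3 (SD, n = 2) in DMSO and 0.04% ± 0.0566 (SD, n = 2) under EPZ, a difference of -22.2 percentage points. The DMSO libraries (2.24% and 42.3%) and the EPZ libraries (0 and 0.08%) did not overlap, but the two-sided exact permutation p was 0.333, the smallest that 2 against 2 allows. K27M and H3WT under EPZ differed by 0.04 points (exact permutation p = 1), and the 2 groups overlapped.

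The 2 regions with an EPZ peak lay side by side in the interval between Gm41099 and Gm2244 (chr14:19415668-19416845 and chr14:19417161-19419748), 116.9 and 114 kb from Gm2244. K27M EPZ replicate 2 covered 1178 of 1178 bp of the first and 2540 of 2588 bp of the second. Both were covered completely in H3WT DMSO and in K27M DMSO replicate 2, and neither had a peak in K27M DMSO replicate 1 or the other EPZ libraries. The nearest EPZ peak lay a median of 2204 and 2764 kb from a region in H3WT and 5178 and 2073 kb in K27M. These libraries had 201 to 340 peaks in all, and the same distances were not computed for other peaks. In H3WT EPZ replicate 2, 58 regions lay on a chromosome without any peak.

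Polycomb proteins were called at few regions. Ring1b peaks overlapped 9 regions in H3WT (0.36%) and 11 in K27M (0.44%), beside 6.90% and 7.52% of all shared autosomal peaks. Suz12 peaks overlapped 0 in H3WT, which allows up to 0.12%, and 6 in K27M (0.24%), beside 3.73% and 6.85%, and 7.85% of all shared peaks had Suz12 in either genotype. Either protein in either genotype met 23 regions (0.92%, 0.584 to 1.38%), beside 11.7% of all shared peaks. Suz12 and Ring1b together met 2 regions (0.08%), beside 5.16%. Among narrow peaks outside genes within 20 kb, 2.16% had a Ring1b or Suz12 peak, 44 of 2034. Among those within genes 4.68% did, 137 of 2925. Suz12 in H3WT overlapped 0 of the 2034 as well, and 8 of the 2925 (0.274%). With 1 library per genotype there was no test of these differences. The 14025 narrow distal peaks chosen from H3WT replicate 2 alone, largely other places, had lower shares. Of these, 0.0143% had a Ring1b peak in either genotype, beside 0.76% of the regions, and 0 had a Suz12 peak, beside 0.24%.

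Ring1b met regions that mostly differed between the 2 genotypes, with 8 in H3WT only, 10 in K27M only and 1 in both, 28.1 kb from Gm39773 (151 and 157 bp). Ring1b in either genotype met 19 regions (0.76%), beside 8.96% of all shared peaks, and in both it met 0.04%, beside 5.46%. Narrow peaks outside genes within 20 kb also mostly differed, with 36 met in either genotype and 6 in both. For narrow peaks within genes these counts were 113 and 51. Of the 8 in H3WT only, 1 had a K27M replicate 2 H3K27me3 peak and none a replicate 1 peak. Of the 10 in K27M only, all 10 had a replicate 2 peak and 7 a replicate 1 peak, and of the 6 with Suz12 in K27M, 6 and 3. Among the 2476 regions with neither protein, 1040 (42.0%) had a K27M replicate 2 peak and 47 a replicate 1 peak. The counts are small, and each rests on 1 Ring1b library per genotype.

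Regions with Ring1b in K27M only included one of 2546 bp, 29.7 kb from Foxd3, a neural crest factor, with 1746 bp under Ring1b. Its H3K27me3 peak covered all 2546 bp in both H3WT and both K27M libraries in DMSO and 0 under EPZ. Next to it in width, a region of 2504 bp lay 54.6 kb from Tbc1d30 and had 500 bp under Ring1b and 1510 bp under Suz12 in K27M, and 0 under both in H3WT. Another lay 22.7 kb from Twist1, a mesoderm and craniofacial factor, within H3WT and K27M replicate 2 peaks of 87.8 and 84.5 kb, and had 343 bp under Ring1b. An adjacent pair 61.9 and 63.2 kb from Hsd17b12, within the noncoding gene Mir670hg, had 606 and 1985 bp under Ring1b, and the second had 1319 bp under Suz12. The other 5 lay near Ercc6l2 (362 bp), Tes (725 bp), Dpyd (377 bp), Melk (1303 bp) and Dmrta1 (1037 bp). Regions beyond the 8 widest were added after their values were seen, so that each one with a Polycomb peak is accounted for.

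Regions with Ring1b in H3WT only included an adjacent pair 158.9 and 157.5 kb from Pcdh9 (1332 and 420 bp under Ring1b) and a pair 75.3 and 73.3 kb from Lilr4b (648 and 1060 bp). Others lay near Adgrl3, a synaptic adhesion receptor (1372 bp), Ghr, the growth hormone receptor (1020 bp), Fat3 (665 bp) and Trps1 (98 bp). Suz12 in K27M, apart from the Tbc1d30 and Hsd17b12 regions, met a pair near Cdk1, the mitotic kinase (181 and 1462 bp), 1 region 26.5 kb from Rbfox3, a neuronal splicing factor (746 bp), and 1 near Mn1 (1120 bp). Regions of a pair share a locus and are not separate observations.

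Around the regions, the libraries differed in how cover ran with distance. H3WT replicate 2 covered 96.7% of bases at the region centres, 48.1% at 10 kb and 31.7% at 50 kb. K27M replicate 2 covered 35.8% at the centre, 16.5% at 10 kb and 11.6% at 50 kb, close to the 16.7% and 11.7% of H3WT replicate 1 at the same distances. K27M replicate 1 was lower at the centre, 1.82%, than at 20 kb, 4.63%. Ring1b in K27M covered 0.197% at the centre and 1.94% at 50 kb, and Suz12 in H3WT 0 and 0.722%. The EPZ libraries covered 0 to 0.08% at the centre and 0.628 to 1.00% at 50 kb. The rule keeps wide peaks and genes away from the centre and not from the surroundings, so the shape of these profiles follows in part from the choice.

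**Figure D5:**
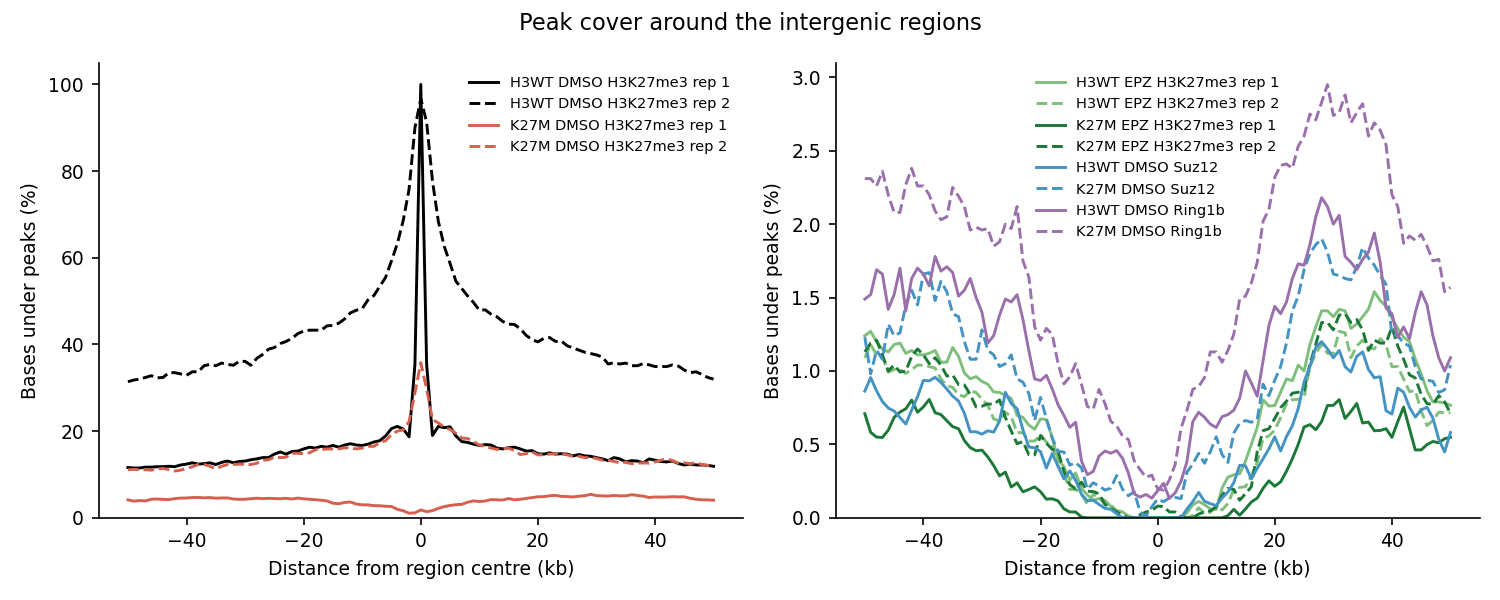
Percent of bases under peaks (y axes, different scales) against distance from the centre of the 2499 regions in kb (x axes), for the H3K27me3 libraries in DMSO (left) and for EPZ, Suz12 and Ring1b (right). Cover is highest at the centre in both H3WT libraries and in K27M replicate 2 (35.8%, beside 11.6% at 50 kb), and is lowest near the centre in the libraries on the right.

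Ring1b peaks were present at a distance. The nearest Ring1b peak lay a median of 298.0 kb from a region in H3WT and 322.6 kb in K27M, and within 50 kb for 417 (16.7%) and 439 regions (17.6%). The nearest Suz12 peak lay a median of 1331 kb away in H3WT and 598.2 kb in K27M, and within 50 kb for 223 (8.92%) and 359 (14.4%). Suz12 had 631 peaks in H3WT and 1252 in K27M, and a larger number of peaks can by itself bring the nearest one closer. The distances to Ring1b and Suz12 were not computed for other peaks, so they have no background here. H3WT replicate 1 peaks of 10 kb or more lay within 100 kb of 782 regions (31.3%). The share was 29.2% for narrow peaks outside genes within 20 kb and 25.7% for those within genes.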

How the data were processed

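H3K27me3, Ring1b and Suz12 ChIP-seq peak lists of 12 libraries were used, 1 list per library, and 2 IgG libraries were not analysed here. Bowtie 1.1.2 and the build mm10 are named per the submitters' processing notes. Caller, threshold, control and read depth are not given in the sources used here, so no interval rests on depth. The deposited lists give chromosome, start and end of each peak, and the deposited score was 0 in every line, so the score was not used and a call shows only where the authors' threshold was passed. More reads or stronger enrichment can by themselves give more peaks and wider ones.

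Touching peaks were merged, which changed no region (2499 from the unmerged lists). Genes came from RefSeq GRCm38.p6 (20665 autosomal protein-coding genes), whose chromosomes are those of mm10. An overlap was at least 1 bp. Groups linked regions less than 100 kb apart. Shares have exact (Clopper-Pearson) 95% intervals, and 3 counts set the limit for a count of 0. Exact permutation tests compared libraries, with a threshold of 0.05, and the test code was tested on simulated data. Groups and replicate numbers came from the titles. Python 3.11.15, numpy 2.4.6, pandas 2.3.3 and scipy 1.17.1 were used.

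The regions, gene lists and tests were chosen with earlier results of these data known. By rule, regions were named as the 8 widest with both K27M peaks, with EPZ peaks and with Suz12 or Ring1b peaks, the 5 largest groups, the 5 farthest from genes and those at the limits. Genes were named as the 10 nearest to the most regions and up to 4 per list, with ties taken by symbol, and as nearest genes of named regions. Alternatives changed the width and distance limits, the overlap, the gene set, the linking distance, the peak width in the libraries compared and each replicate.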

Additional observations from a re-analysis of the deposited data

Results flagged for a closer look

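The share of regions overlapped in K27M EPZ replicate 2 stood apart from the other EPZ libraries. It was 0.08% (2 of 2499 regions), beside 0 in H3WT EPZ replicates 1 and 2 and in K27M EPZ replicate 1. Because the other 3 were 0, any overlap in 1 library would have set it apart by this measure. The value rests on 2 adjacent regions near Gm2244.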

How the results depend on the processing

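K27M EPZ minus K27M DMSO was below 0 in each alternative run, and no result reversed. For the share called in both of the K27M DMSO libraries (2.24%), the values were 1.36% for regions under 2 kb, 4.13% under 5 kb, 1.12% with K27M peaks of at least 2 kb and 4.19% with 1 unit per linked group, an alternative chosen after seeing the data. Without single libraries it ran from 0.0143 to 42.3%. For at least 1 K27M DMSO library (42.3%), they were 36.7% under 2 kb, 47.7% under 5 kb, 36.7% with overlap of 50% of the region, 28.6% with peaks of at least 2 kb, 38.4% with genes of every type (1099 regions) and 53.3% per group, and 2.24 to 42.3% without single libraries. The share in any EPZ library was 0 with genes of every type and 0 to 0.08% without single libraries. Suz12 was 0 with peaks of at least 2 kb and 0.524% per group, and 0 to 0.232% without single libraries. Ring1b was 1.26% under 5 kb, 0.37% with overlap of 50%, 0.32% with peaks of at least 2 kb and 1.68% per group, and 0.0143 to 0.772% without single libraries. Another region within the linking distance was found for 75.3% under 2 kb, 83.7% under 5 kb, 73.6% with genes of every type, 75.4% at 50 kb and 88.6% at 500 kb, and 80.5 to 93.3% without single libraries. The difference from narrow peaks within or near genes (-1.31 points) had an exact permutation p of 0.0312 with peaks of at least 2 kb (-0.842) and with genes of every type (-1.86), set by EPZ differences of a few peaks, and ran from -1.96 to -0.294 without single libraries. With the replicate number as a block, K27M EPZ minus DMSO was -22.2 points (exact permutation p = 0.5) and K27M minus H3WT under EPZ 0.04 (p = 1); the numbers come from titles alone, with 2 pairs. Without single libraries these differences ran from -42.2 to -1.44 and from 0 to 0.08. Without H3WT replicate 1, 14025 peaks under 3 kb in replicate 2 were chosen, which are largely other places. Among them the share with at least 1 K27M peak was 2.89%, with Ring1b 0.0143% and with Suz12 0. The cause of these shifts was not tested. Limits include unknown depth, the spread between the K27M libraries and the choice of H3WT replicate.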

Other observations

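Other classes of distal peaks belong to no comparison above. On the X chromosome 757 peaks met the rule in other respects, with a median width of 1.32 kb. K27M DMSO replicate 1 overlapped 14 of them (1.85%) and replicate 2 overlapped 482 (63.7%, 60.1 to 67.1%), no EPZ or Suz12 library overlapped any, and Ring1b overlapped 4 in H3WT and 5 in K27M.

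Distal autosomal shared peaks of 3 kb or more numbered 809, with a median width of 4.80 kb. K27M DMSO overlapped 33.0% of them in replicate 1 and 87.8% in replicate 2. The EPZ libraries overlapped 0.494 to 2.22%, Ring1b 9.89% in H3WT and 10.5% in K27M, and Suz12 2.22% and 6.67%. The 91 narrow distal peaks of H3WT replicate 1 that had no replicate 2 peak had a median width of 1.08 kb. K27M replicate 2 overlapped 2 of them (2.20%), K27M replicate 1 and the EPZ libraries 0, and Ring1b in H3WT 1.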
